A study of Mus musculus with 12 samples.

Results

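The genes described here are those with an Mrpl or Mrps symbol, which name the protein parts of the mitochondrial ribosome. They were chosen by symbol alone, as protein-coding rows whose symbol is Mrpl or Mrps followed by a number and at most 1 letter. The rule found 78 members among 21897 protein-coding rows and 55401 rows in all. Of these, 49 are Mrpl and 29 are Mrps genes, and they lie on 17 chromosomes. The hearts came from wild-type mice of the inbred strain C57BL/6J and were sequenced in bulk, with 3 libraries in each of 4 groups. Exercised females and exercised males were trained on a treadmill (1 km/h, 45 min a day, 5 days a week) over 6 weeks. Sedentary females and sedentary males of matching age were left in their cages for that time. Neither the age itself nor the dissection was given in the sources used here, and each library was taken as 1 animal.

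The mitochondrial ribosome translates the few messages of the mitochondrial genome, which encode core subunits of the respiratory chain and the ATP synthase. Its rRNA comes from the mitochondrial genome, whereas all of its proteins are encoded in the nucleus, made in the cytosol and imported. Some of these proteins descend from bacterial ribosomal proteins and others exist only in mitochondria, and mutations in several of them cause disease of the heart muscle. In the unified naming, Mrps30 (mL65) and Mrps18a (mL66) sit in the large subunit in spite of their symbols. Mrps36 was first counted as a ribosomal protein and is a subunit of the 2-oxoglutarate dehydrogenase complex. Counted in this way, 51 members belong to the large subunit and 26 to the small one. Origin was read from the prefix of the unified name alone. By it, 46 members count as bacterial homologues (prefix u or b) and 31 as specific to mitochondria (prefix m). Mrps18c (bS18m) thus falls in the first class, and Mrps18a and Mrps18b (mS40) fall in the second.

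The libraries held 22204349 to 32566240 counts each, and the members took 0.361 to 0.41% of the counts in the genes tested. In all, 16213 genes passed the filter on low counts. Among them were 77 of the 78 members. The exception was Mrpl53 (ENSMUSG00000030037), a large-subunit protein specific to mitochondria, which had 0 counts in all 12 libraries. On chromosome 6, 88.0% of its exon bases (GRCm38, chr6:83109040-83109939) are shared with Ccdc142os and Gm42688. How reads in such shared bases were counted was not stated, and the 0 counts of Mrpl53 say nothing of its expression. The 6 cardiomyocyte markers summed to between 54200 and 63200 counts scaled to library size (CPM) in each library, and their leading gene Myh6 lay between 25500 and 31000 CPM. Atrial and red-cell transcripts differed between libraries. The 5 atrial markers summed to 308 CPM in female exercised 2, to 199 CPM in female sedentary 1 and to 89.7 CPM in female sedentary 2, and elsewhere to between 21.9 and 39.2 CPM. The atrial gene Sln had 0 CPM in 4 of those 9 libraries. The same 3 female libraries had the 3 highest erythroid sums, up to 3630 CPM.

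Per kilobase of mRNA, the members were well-expressed genes with a wide range of levels. Their median level was 30.7 CPM per kb, the 86.9th percentile of the 13626 coding genes tested, whose median was 5.0 CPM per kb. Mrpl42 (mL42), a large-subunit protein specific to mitochondria, had the highest level at 388 CPM per kb. It was followed by Mrps21 (bS21m) at 149 CPM per kb and Mrpl30 (uL30m) at 130 CPM per kb. The lowest levels were those of Mrpl17 (bL17m) at 4.94, Mrps25 (mS25) at 4.96 and Mrpl19 (bL19m) at 5.03 CPM per kb. These 3 differed by less than their own spread over libraries, and Mrps25 shares 69.8% of its exon bases with Nr2c2. The highest and lowest members differed 78.5-fold in level. The median level was 33.5 CPM per kb in the large subunit and 17.7 CPM per kb in the small one. It was 32.8 CPM per kb for the bacterial homologues and 27.9 CPM per kb for the proteins specific to mitochondria. Levels per kb rest on 1 annotated mRNA for each gene.

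**Figure D1:**
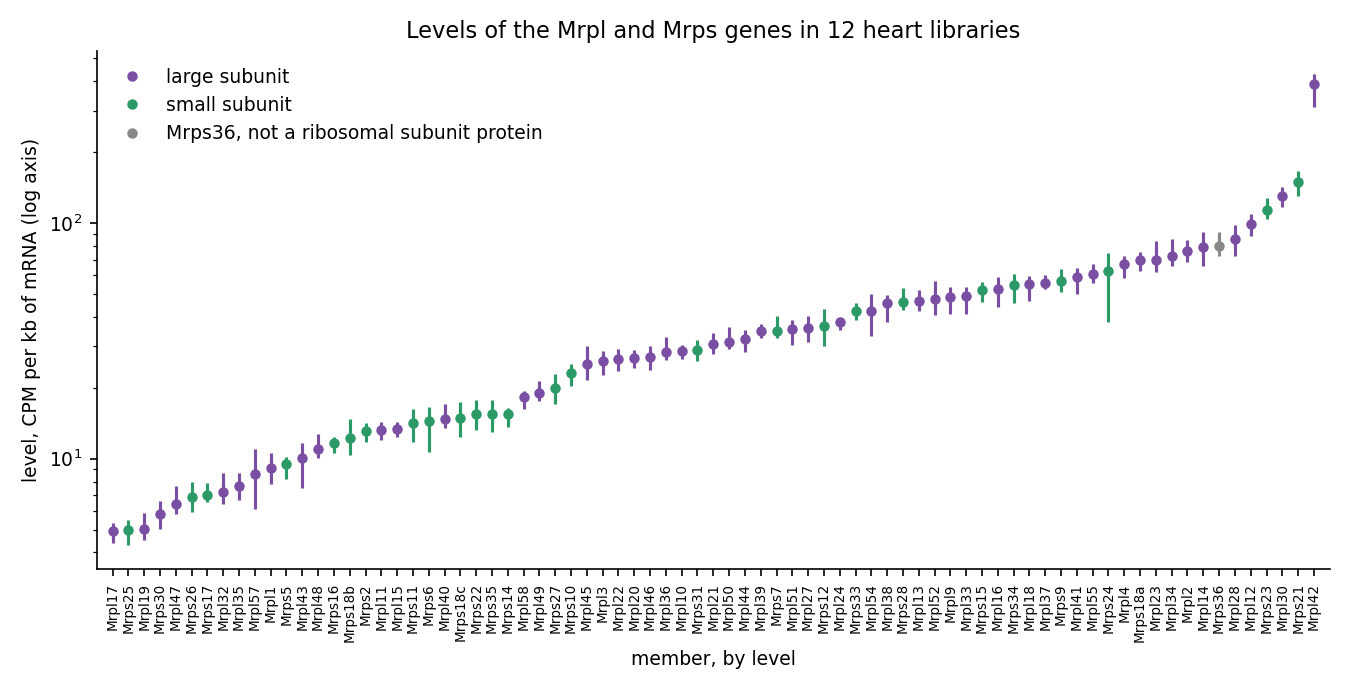
Mean level of each of the 77 members with counts, in CPM per kb of mRNA on a log axis, ordered from low to high and coloured by ribosomal subunit. Lines span the lowest to the highest of the 12 libraries. Levels run from 4.94 for Mrpl17 to 388 for Mrpl42, and for most members the lines are short beside that range.

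Within a gene, the libraries were close together. The highest library was 1.27 times the lowest in the median member, against 1.57 times in the median of all genes tested. Most genes tested have lower levels than the members, and genes of like level were not compared. In 72 of 77 members this ratio stayed below 1.5. It ranged from 1.12 for Mrpl24 (uL24m), with 47.2 to 53.0 CPM, to 1.96 for Mrps24 (uS3m), with 37.9 to 74.5 CPM.

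Over all members, the male libraries separated by group and the female libraries did not. The male libraries also separated by group over all genes with short mRNAs, as given below. Each member's log2 CPM, with 0.5 added, was set against its mean over the 12 libraries, and the median of these deviations was taken in each library. In exercised males the medians were 0.051, 0.046 and 0.053. In sedentary males they were 0.019, −0.004 and 0.001, all below the exercised males. In exercised females they were 0.029, −0.010 and −0.009, and in sedentary females −0.081, −0.113 and 0.031. Female sedentary 1 and 2 were the lowest of the 12 and female sedentary 3 was above all 3 exercised females, so the female groups overlapped. Female sedentary 2, the lowest, was also the only library with counts in rows of the mitochondrial genome, 27.3% of its counts. The 2 low libraries are among the 3 with atrial and erythroid transcripts, and the third, female exercised 2, was not low. Fits without these 3 libraries or with an atrial score as covariate are given below. The cause of the low medians was not tested. In bulk tissue, fewer cells of a type and less RNA per cell cannot be told apart.

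**Figure D2:**
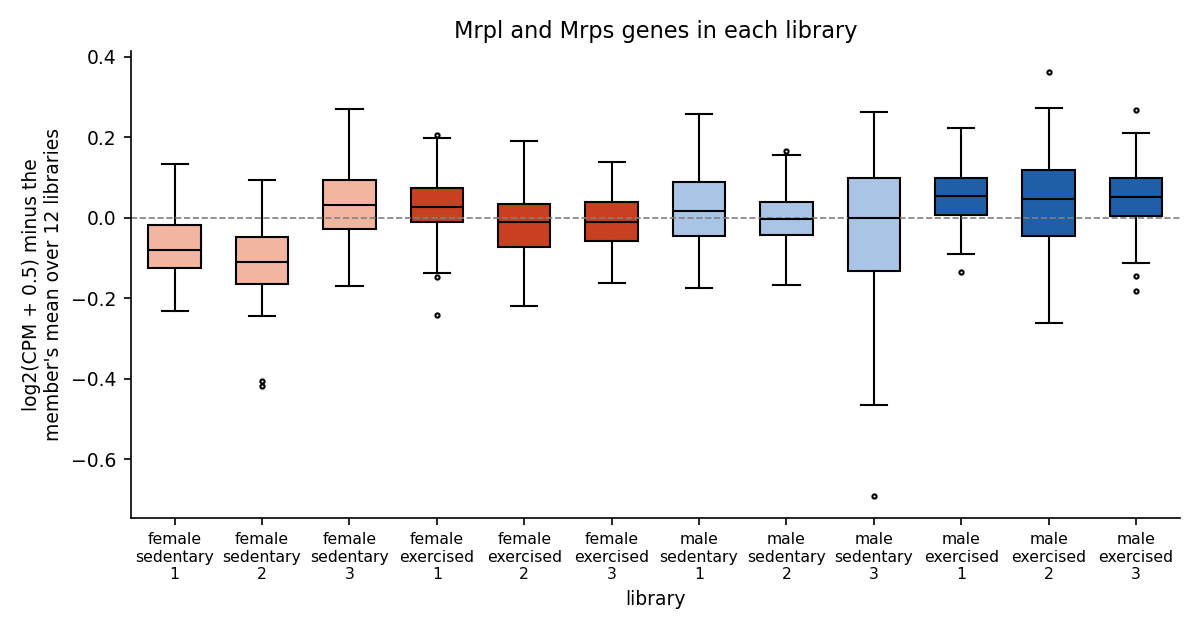
Deviation of the 77 members from their own mean over the 12 libraries, on the log2(CPM + 0.5) scale, as 1 box for each library with the median, the quartiles and whiskers to 1.5 times the interquartile range. Female sedentary 1 and 2 have the lowest medians (−0.081 and −0.113) and the 3 exercised males lie near 0.05.

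In female hearts, exercised and sedentary libraries gave no member past the test. The median log2 fold change of the members was 0.057, with 58 of 77 above 0, against 0.000 over all genes tested. None of the 77 members, and 0% of all genes, had an adjusted p below 0.05 in edgeR's quasi-likelihood test. At an unadjusted p below 0.05 there were 5 members (6.49%) against 3.93% of all genes, and neither DESeq2 nor limma voom called a member. In 12 members all 3 exercised libraries were above all 3 sedentary ones and in 2 they were below, together 18.2% of the members against 9.79% of all genes. For 70 of 77 members the 95% interval of the change lay within 1.25-fold in either direction, and for all 77 it lay within 1.5-fold. With an atrial score as covariate the member median was 0.053, with 55 of 77 above 0. Without the 3 libraries with atrial transcripts it was −0.023, with 34 of 77 above 0. That fit leaves 1 sedentary female, female sedentary 3, whose spread is taken from the other groups. Single libraries moved the median too. It was 0.035 without female exercised 1, 0.037 without female sedentary 1, 0.023 without female sedentary 2 and 0.101 without female sedentary 3.

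The largest female difference was that of Mrps6 (bS6m), a small-subunit protein with a bacterial homologue. Its CPM was 13.2, 14 and 12.7 in exercised and 11, 9 and 12.1 in sedentary females. The groups did not overlap, and female sedentary 2 was the lowest library. The log2 fold change was 0.32 ± 0.12 (SE, n = 3 each; adjusted p = 1, edgeR). It was 0.10 without the 3 libraries with atrial transcripts, and 19.9% of the exon bases of Mrps6 are shared with Gm49711 and Slc5a3. Mrpl43 (mL43), a large-subunit protein specific to mitochondria, had 14.7, 14.8 and 13.2 CPM in exercised and 12.1, 10.5 and 13.9 CPM in sedentary females. Its groups overlapped, the log2 fold change was 0.23 ± 0.11 (SE), and it was 0 without those 3 libraries. Mrpl18 (uL18m) differed by 0.17 ± 0.071 and Mrpl16 (uL16m) by 0.15 ± 0.068 on the log2 scale. Only Mrpl16 had groups that did not overlap, with 63.9, 57.2 and 58.8 CPM in exercised against 51.4, 54.4 and 56.7 CPM in sedentary females.

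In male hearts, Mrps24 had the largest difference among the members, and no member passed the test. The median log2 fold change of the members was 0.051, with 48 of 77 above 0, against 0.001 over all genes tested. With the trend of each library over transcript length removed, an alternative chosen after the data were seen, it was −0.013 with 34 of 77 above 0. The edgeR test called 0 members and 0% of all genes. At an unadjusted p below 0.05 there were 13 members (16.9%) against 7.84% of all genes, and 12 of these 13 were above 0. DESeq2 called 1 member, Mrps24, and limma voom called 0. Exercised libraries were all above the sedentary ones in 20 members and all below in 4, together 31.2% of the members against 12.3% of all genes. For 62 of 77 members the 95% interval lay within 1.25-fold, and for 75 within 1.5-fold, the exceptions being Mrpl57 (mL63) and Mrps24.

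Mrps24 is the mitochondrial form of ribosomal protein uS3, which lies at the entry of the message channel of the small subunit. Its CPM was 71.9, 74.5 and 66.6 in exercised and 54.5, 54.8 and 37.9 in sedentary males. It was 64.8, 61.1 and 64.3 in exercised and 65.1, 65.7 and 67.3 in sedentary females. All 3 sedentary males were lower than the other 9 libraries, and male sedentary 3 was the lowest. The log2 fold change with exercise was 0.53 ± 0.11 (SE) in males (95% interval 0.30 to 0.77, unadjusted p = 0.000247, adjusted p = 0.567, edgeR). In females it was −0.058 ± 0.11 (SE). The test of the difference between the sexes gave −0.59 ± 0.15 (SE), the smallest p of all members, with an adjusted p of 0.93 (edgeR). With DESeq2 the male change was 0.53 with an adjusted p of 0.0168. Without male sedentary 3 it was 0.38 with an adjusted p of 0.981 (edgeR), and over the 12 fits that left out 1 library the adjusted p ran from 0.196 to 0.981. Mrps24 shares 15.4% of its exon bases with Urgcp, at chr11:5703983-5715680 (GRCm38).

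**Figure D3:**
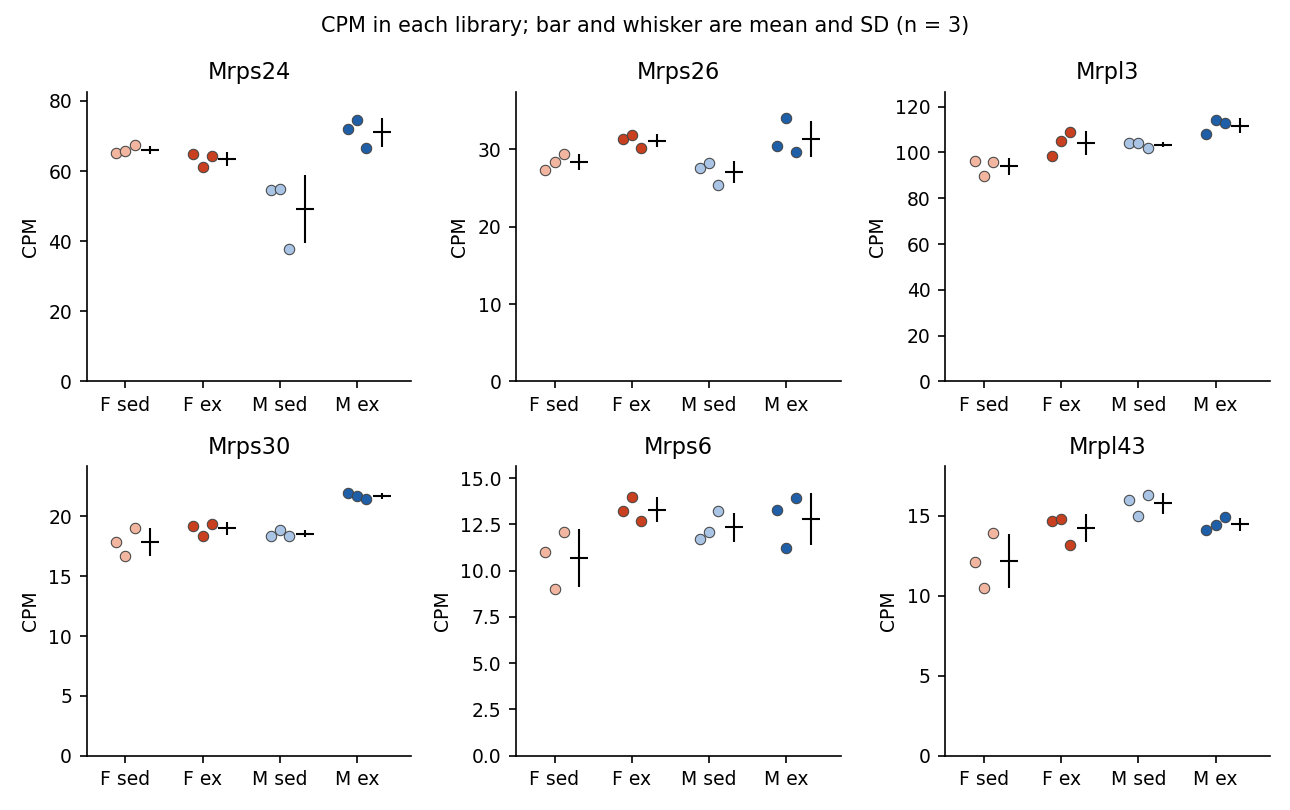
CPM of Mrps24, Mrps26, Mrpl3, Mrps30, Mrps6 and Mrpl43 in each of the 12 libraries, by sex (F, M) and sedentary (sed) or exercised (ex) group. Dots are libraries and the bar with whiskers is the mean and SD of 3. The 3 sedentary males of Mrps24 (37.9 to 54.8 CPM) lie below all other libraries.

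By p, Mrps30 and Mrps26 came next in males, while by size Mrpl57, a large-subunit protein specific to mitochondria, came next. Mrpl57 had 24.1, 31.6 and 25.4 CPM in exercised and 24.7, 22.7 and 17.6 CPM in sedentary males. The groups overlapped, and the log2 fold change was 0.32 ± 0.13 (SE; adjusted p = 0.627, edgeR) in males and −0.022 ± 0.13 in females. Mrps30, a large-subunit protein specific to mitochondria, had 22, 21.7 and 21.5 CPM in exercised and 18.4, 18.9 and 18.4 CPM in sedentary males. The exercised males were thus above all 9 other libraries, whose highest value was 19.4 CPM. Its log2 fold change was 0.23 ± 0.076 (SE; adjusted p = 0.615, edgeR) in males and 0.090 ± 0.076 in females. Of the other members of small p, Mrpl54 (mL54) differed by 0.26 ± 0.097 and Mrpl14 (uL14m) by 0.25 ± 0.095 on the log2 scale in males. In Mrpl54 the groups did not overlap (25.8, 30.2 and 26.3 against 23.2, 25.6 and 20.0 CPM), while in Mrpl14 1 sedentary male was above the lowest exercised one. In females they differed by 0.043 and 0.030.

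Of all members, 2 had exercised libraries above sedentary ones in both sexes without overlap, and none had them below in both. That is 2.6% of the members, against 0.407% of all genes above and 0.185% below in both sexes. The 2 were Mrps26 (mS26), a small-subunit protein specific to mitochondria, and Mrpl3 (uL3m), a bacterial homologue at the core of the large subunit. Mrps26 had 31.3, 31.8 and 30.2 CPM in exercised and 27.3, 28.4 and 29.4 CPM in sedentary females. In males it had 30.4, 34.0 and 29.6 CPM against 27.6, 28.2 and 25.4 CPM. All 6 exercised libraries were above all 6 sedentary ones, by less than 1 CPM between the closest. Mrpl3 had 98.5, 105 and 109 CPM in exercised and 96.4, 89.7 and 95.6 CPM in sedentary females, and 108, 114 and 113 CPM against 104, 104 and 102 CPM in males. In Mrpl3 the males lay higher than the females, so that sedentary males overlapped exercised females. The average log2 fold change of both sexes was 0.17 ± 0.053 (SE) for Mrps26 and 0.13 ± 0.043 for Mrpl3, each with an adjusted p of 0.782 (edgeR). Mrps26 differed by 0.13 in females, and by 0.068 without the 3 libraries with atrial transcripts.

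The average exercise effect and the difference between the sexes called no member in the edgeR test either. For the average effect, 62 of 77 members were above 0 with a median of 0.052, against 0.001 over all genes. There were 12 members (15.6%) with an unadjusted p below 0.05, against 6.28% of all genes, and 0 adjusted calls by edgeR, DESeq2 or limma voom, with 0% of all genes called by edgeR. The median was 0.034 without female sedentary 2. Without the 3 libraries with atrial transcripts it was 0.017 with 45 of 77 above 0. With the trend over transcript length removed it was 0.020 with 49 above 0. For the difference, the member median was 0.015 with 42 of 77 above 0, and it ran from −0.012 without female exercised 1 to 0.063 without female sedentary 3. There were 2 members (2.6%) with an unadjusted p below 0.05, Mrps24 and Mrpl43, against 4.74% of all genes, and 0 adjusted calls by the same 3 tools, with 0% of all genes called by edgeR. Mrpl43 had a difference of 0.35 ± 0.15 on the log2 scale, being 0.23 in females and −0.12 in males, where the exercised males (14.1, 14.4 and 14.9 CPM) were below the sedentary ones (16.0, 15.0 and 16.3 CPM). Members were above 0 in both sexes in 36 cases and below 0 in both in 7. Another 22 were above 0 in females alone and 12 in males alone. Mrpl23 (uL23m), at the exit of the peptide tunnel, and Mrps15 (uS15m) followed in the test of the difference. Mrpl23 had log2 fold changes of −0.13 in females and 0.11 in males, and Mrps15 of −0.043 and 0.17.

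**Figure D4:**
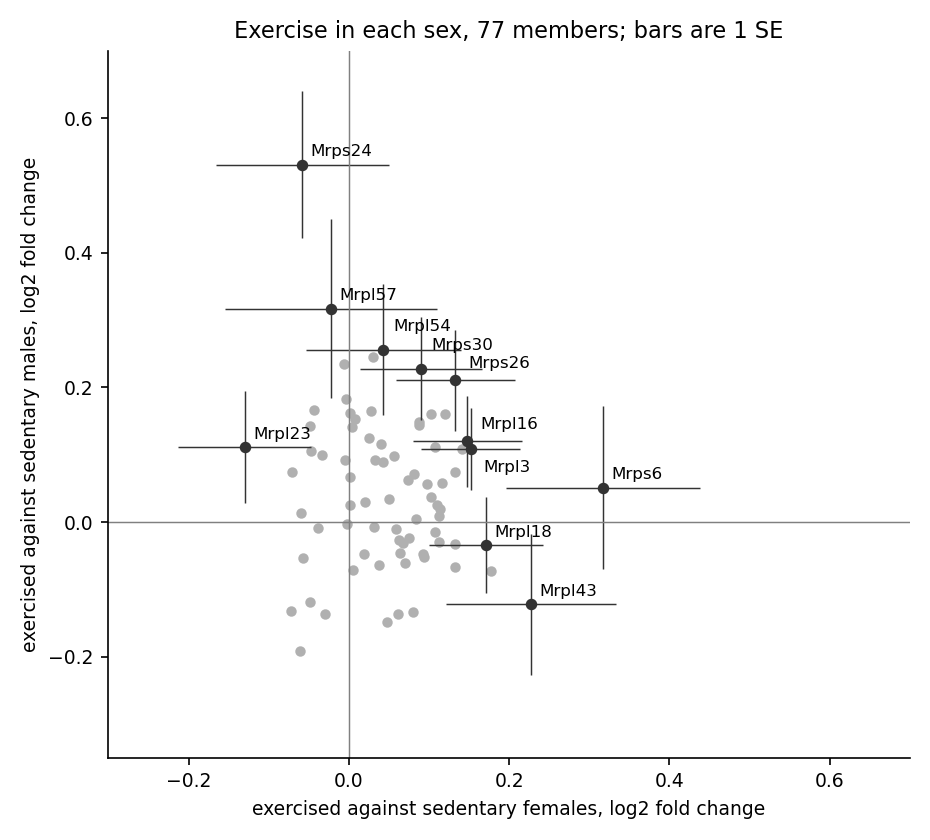
Log2 fold change with exercise in females (horizontal) and in males (vertical) for the 77 members tested, with 1 SE as bars for the members named. Most members lie between −0.2 and 0.2 on both axes. Mrps24 (−0.058 and 0.53), Mrps6 (0.32 and 0.051) and Mrpl57 (−0.022 and 0.32) lie farthest from 0.

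By subunit and origin, the medians lay close together, and their differences were not tested. In females the median log2 fold change was 0.045 in the large and 0.066 in the small subunit, and in males it was 0.060 and 0.017. Bacterial homologues had medians of 0.046 in females and 0.063 in males, and proteins specific to mitochondria 0.063 and 0.025. A panel of 16 members, most of them known from human disease or from a particular task, was followed whatever its result.

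In the small subunit, Mrps12 (uS12m), which lines the decoding site, had log2 fold changes of −0.006 in females and 0.23 in males (SE 0.091 in each). Mrps7 (uS7m) had 0.004 and 0.14, and Mrps5 (uS5m) had 0.11 and −0.029. Mrps16, Mrps22 and Mrps34, mutated in mitochondrial disease, had −0.060, 0.062 and −0.071 in females and 0.014, −0.14 and 0.075 in males. Mrps34 shares 77.8% of its exon bases with Mapk8ip3 and Nme3. Of the 3 Mrps18 genes, Mrps18b and Mrps18c shared their signs and Mrps18a had the opposite ones. Their SEs in females were 0.068 for Mrps18a, 0.119 for Mrps18b and 0.127 for Mrps18c. Mrps18a of the large subunit had −0.047 in females and 0.10 in males. In the small subunit Mrps18b had 0.094 and −0.052, and Mrps18c had 0.063 and −0.026.

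In the large subunit, Mrpl12 (bL12m), part of the stalk that binds translation factors, had 0.14 ± 0.068 (SE) in females and 0.11 ± 0.068 in males. Its CPM was 144, 136 and 126 in exercised against 116, 124 and 128 in sedentary females, and 142, 138 and 131 against 131, 126 and 124 in males. The groups met or overlapped by 1 library in each sex. Mrpl11 (uL11m), at the base of the stalk, had −0.002 and −0.003. Mrpl44 (mL44), whose mutations cause cardiomyopathy, had 0.050 and 0.035. Mrpl45 (mL45), which holds the ribosome to the inner membrane, had 0.080 and −0.13. Mrps36 had 0.081 and 0.072. None of these 16 passed the edgeR test in either sex.

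Transcript length moved with the male result. The median mRNA of the members was 1316 bases long, against 3032 in the coding genes tested, and 49 of 77 members fell in the shortest of 5 equal classes of genes, with at most 1758 bases. Over all genes of that class, the median deviations were 0.037, 0.009 and −0.006 in exercised males. In sedentary males they were −0.034, −0.023 and −0.093, the last in male sedentary 3. The male groups thus separated over all short genes as they did over the members, while the female groups overlapped. Among members, the 49 with short mRNAs had a median log2 fold change of 0.072 in males, with 36 above 0. The 28 with longer mRNAs had −0.008, with 12 above 0. In females the medians were 0.050 and 0.058. With the trend over transcript length removed, where the male median was −0.013, the female median was 0.046 with 54 above 0. In that fit the male change of Mrps24 was 0.46, that of Mrps26 0.22 and that of Mrps30 0.22, while that of Mrpl14 was 0.14 and that of Mrpl12 was 0.050.

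Between the sexes, sedentary hearts had lower member levels after scaling in females than in males for most members, again with no call. The median log2 difference, females minus males, was −0.058 with 53 of 77 below 0, against 0.014 over all genes. The edgeR test called 0 members against 2.21% of all genes. At an unadjusted p below 0.05 there were 24 members (31.2%) against 18.4% of all genes. DESeq2 called 4 members, and limma voom 0. All 3 females were below all 3 males in 19 members and above in 3, together 28.6% of the members against 25% of all genes. Without the 3 libraries with atrial transcripts the median was 0.028 with 44 of 77 above 0, and it was −0.003 with an atrial score as covariate. With the trend over transcript length removed it was −0.11. It was −0.036 with 31 of 77 above 0 without female sedentary 1 and again without female sedentary 2, and −0.083 with 15 above 0 without female sedentary 3. The scaling factors were 1.03, 1.08 and 1.02 in sedentary females and 0.997, 0.985 and 0.943 in sedentary males. Before these factors, the members together took 0.388, 0.394 and 0.41% of the counts in the genes tested in females. In males they took 0.4, 0.389 and 0.361%.

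The members of smallest p in sedentary hearts were Mrps24, Mrpl43, Mrpl50, Mrpl28 and Mrpl18. Mrps24 was higher in females, by 0.43 ± 0.11 (SE; adjusted p = 0.0593, edgeR). Mrpl43 was lower in females, by −0.38 ± 0.11 (adjusted p = 0.0803, edgeR), and the 3 females (12.1, 10.5 and 13.9 CPM) were below the 3 males. This value was −0.18 without the 3 libraries with atrial transcripts. Mrpl50 (mL50) had 62.6, 61.6 and 61.7 CPM in females and 68.1, 69.8 and 76.4 CPM in males, a difference of −0.21 ± 0.060 (adjusted p = 0.0921, edgeR). Mrpl28 (bL28m) had 85.2, 77.4 and 85.6 CPM in females and 95.5, 93.4 and 97.9 CPM in males, a difference of −0.21 ± 0.064. Mrpl18 differed by −0.22 ± 0.071. DESeq2 called Mrps24, Mrpl43, Mrpl50 and Mrpl28, with adjusted p from 0.0138 to 0.0335.

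In exercised hearts the members, after scaling, also lay mostly lower in females. The median difference was −0.047 with 61 of 77 below 0, against 0.004 over all genes. It was −0.016 with 31 of 77 above 0 with an atrial score as covariate. With upper quartile scaling it was −0.029 with 23 above 0. Without the 3 libraries with atrial transcripts it was −0.049 with 22 above 0. The scaling factors were 1, 1.03 and 1.01 in exercised females and 0.96, 0.964 and 0.983 in exercised males. Before these factors, the members together took 0.405, 0.403 and 0.395% of the counts in the genes tested in females. In males they took 0.395, 0.396 and 0.4%. How far the direction rests on the factors was not tested. The edgeR test called 0 members against 0.16% of all genes. There were 7 members (9.09%) with an unadjusted p below 0.05, against 9.84% of all genes, and neither DESeq2 nor limma voom called one. Females were below males without overlap in 15 members and above in 2, together 22.1% of the members against 14.3% of all genes. Mrpl28 was lower in females here too, with 91.5, 88.4 and 85.6 CPM against 96.7, 105 and 97.2 CPM, a log2 difference of −0.17 ± 0.064 (SE). Mrps30 differed by −0.20 ± 0.076, Mrps27 (mS27) by −0.20 ± 0.082 and Mrpl16 by −0.16 ± 0.068. Mrpl36 (bL36m), a bacterial homologue of the large subunit, was higher in females, by 0.17 ± 0.076. The difference of Mrps24 between the sexes was −0.16 ± 0.11 in exercised hearts.

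Around the members, 7 lists of mitochondrial genes, 93 genes in all, were counted in the same fits. They cover the ribosome and its assembly, translation, tRNA charging, mitochondrial DNA, chaperones and proteases, and regulators of biogenesis. Some of these genes have tasks outside the ribosome. In both exercise comparisons the edgeR test called 0 of the 93 genes. In females, 17 of 23 genes of ribosome assembly and rRNA modification were above 0 (median 0.027), as were 12 of 14 translation factors (0.072) and 14 of 21 aminoacyl-tRNA synthetases (0.062). The same held for 7 of 10 genes of mitochondrial DNA transcription and copying (0.064), 9 of 11 chaperones and proteases (0.079) and 6 of 9 regulators of biogenesis (0.010). Of the 5 mitochondrial ribosomal proteins without an Mrp symbol, 2 were above 0 (median −0.014). In males, the numbers above 0 were 11 of 23 for assembly (−0.021), 3 of 14 for translation factors (−0.041) and 14 of 21 for synthetases (0.019). They were 6 of 10 for DNA transcription and copying (0.019), 5 of 11 for chaperones (−0.022), 6 of 9 for regulators (0.057) and 4 of 5 for the other ribosomal proteins (0.11).

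In males, single genes of these lists differed in both directions. Mtif2, the initiation factor that brings the first tRNA, had a log2 fold change of −0.35 ± 0.088 (SE) in males and −0.001 in females. Ppargc1a, the coactivator known for driving mitochondrial biogenesis, had 67.2, 105 and 83.5 CPM in exercised and 158, 121 and 125 CPM in sedentary males, without overlap. Its log2 fold change was −0.66 ± 0.18 (SE; adjusted p = 0.588, edgeR) in males and −0.054 in females. Other genes were higher in exercised males without overlap. Cars2 of the synthetase list had 49.5, 49.7 and 45.6 CPM in exercised and 41.1, 41.6 and 39.2 CPM in sedentary males. Grsf1 of the assembly list had 227, 227 and 226 CPM against 211, 216 and 213 CPM. Fastkd2, an RNA-binding protein of large-subunit assembly, had 28.8, 31.0 and 28.0 CPM in exercised and 25.1, 24.6 and 25.9 CPM in sedentary females. That was a change of 0.22 ± 0.071 (SE) in females and −0.021 in males.

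In sedentary hearts 6 of the 93 genes of the lists (6.45%) passed the test between the sexes, each lower in females, against 2.21% of all genes. All 14 translation factors were below 0, with a median of −0.26, and 4 of them passed. Gfm1, elongation factor G, had 191, 186 and 186 CPM in females and 238, 227 and 232 CPM in males, a log2 difference of −0.31 ± 0.055 (SE; adjusted p = 0.012, edgeR). Gfm2, which splits the ribosome after termination, differed by −0.35 (adjusted p = 0.00987, edgeR). The others were Taco1, a translation activator of cytochrome c oxidase, by −0.52, and Lrpprc, which stabilises mitochondrial messages, by −0.34. Ptcd3, a small-subunit protein without an Mrp symbol, differed by −0.39 (adjusted p = 0.0102, edgeR), and the protease subunit Spg7 by −0.23 (adjusted p = 0.0489, edgeR). The call of Spg7 was also lost with upper quartile scaling (adjusted p = 0.0614), without a filter (0.133), without robust estimation (0.0535), with only the groups compared (0.102) and in 11 of the 12 fits that left out 1 library (edgeR). Each of the 6 calls was lost with an atrial score as covariate (adjusted p 0.0552 to 0.187, edgeR) and when single sedentary libraries were left out. With that covariate the log2 difference was −0.30 for Gfm1, −0.35 for Gfm2, −0.33 for Lrpprc, −0.34 for Ptcd3, −0.41 for Taco1 and −0.20 for Spg7. Without male sedentary 3, for example, the adjusted p was 0.0544 for Gfm2, 0.0621 for Ptcd3, 0.0736 for Lrpprc and 0.124 for Taco1 (edgeR). Gfm1 lost its call without female sedentary 2 (0.0544) or male sedentary 1 (0.0516). The 14 translation factors stood at a median of −0.10 in exercised hearts, where 12 were below 0 and 0 passed in the edgeR test, with 3 at an unadjusted p below 0.05, which 9.84% of all genes had.

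Members often sit beside another gene that starts close by on the other strand. Such a start within 1000 bp was annotated for 33 of 78 members (42.3%), against 10.8% of 22028 protein-coding genes. Mrpl46 (mL46, chr7:78775236-78783531) and Mrps11 (uS11m, chr7:78783119-78792989) are such a pair with both genes in the set, and their starts overlap. Mrps12 stands 172 bp from the start of Sars2, the mitochondrial seryl-tRNA synthetase, and Mrpl36 overlaps the start of Ndufs6, a complex I subunit. Mrpl43 (chr19:45004829-45006442) overlaps the first part of Twnk, the helicase that copies mitochondrial DNA, over 33.4% of its exon bases. Twnk had log2 values of 0.18 with exercise in females, −0.054 in males and −0.29 between the sexes in sedentary hearts, against 0.23, −0.12 and −0.38 for Mrpl43. Without a known strand setting, reads of the 2 overlapping genes cannot be told apart.

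The letters before the start of transcription were searched in 69 members with an entry in the RefSeq promoter table (GRCm38.p6), over 250 bases before and 50 after the start, on both strands. No motif searched contains another. The ETS motif CCGGAAG, bound by the GABP factor among others, was in 37.7% of members, against 18.6% of genes tested and 9.9% of all 27025 promoters. The NRF1 motif CGCATGCG, which reads the same on both strands, was in 10.1% of members, 4.0% of genes tested and 2.1% of all. The YY1 motif AAGATGGC was in 17.4%, 4.9% and 3.2%. At least 1 of these 3 was in 55.1% of members and 25.2% of genes tested. The estrogen-related receptor motif AAGGTCA was in 5.8% of members, 4.1% of genes tested and 5.4% of all. The E-box CACGTG was in 7.2%, 11.4% and 8.1%, and the TATA letters TATAAA in 7.2%, 9.4% and 15.7%. These are shares of windows with the letters, not of bound sites.

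**Figure D5:**
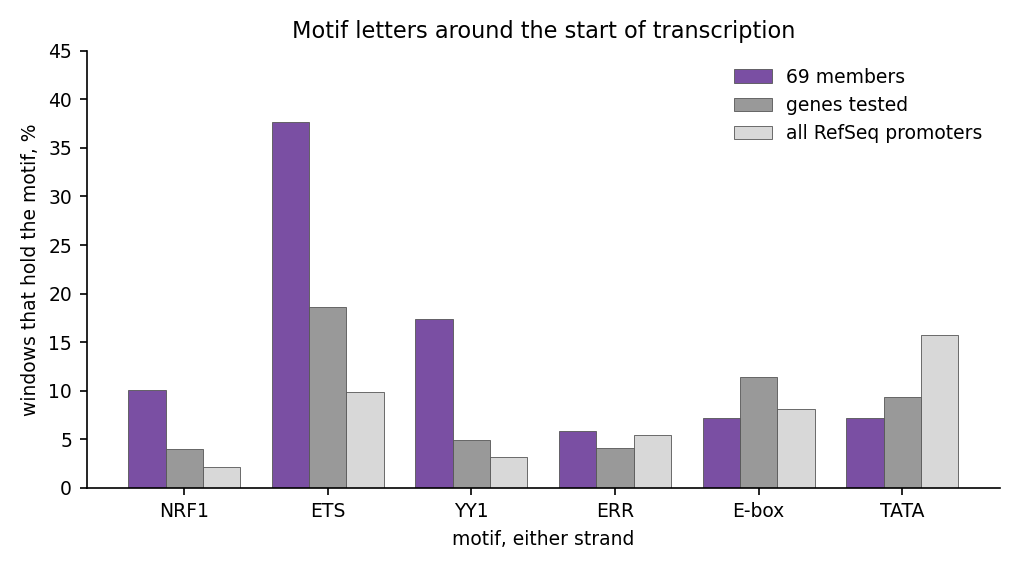
Share of 300-base RefSeq windows around the start of transcription that hold each motif on either strand, in percent, for 69 members, for the genes tested and for all promoters. The members' bars for ETS (37.7%), YY1 (17.4%) and NRF1 (10.1%) are higher than those of the genes tested (18.6%, 4.9% and 4.0%).

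The 100 bases before the RefSeq start are shown for the 2 members with no overlap in both sexes, for Mrpl43, and for 2 members that hold the NRF1 letters, 5′ to 3′ on the gene's strand. Capitals mark the ETS letters (CCGGAAG or, on the other strand, CTTCCGG) and the NRF1 letters (CGCATGCG).
Mrpl3 (chr9:105053168-105053267, + strand): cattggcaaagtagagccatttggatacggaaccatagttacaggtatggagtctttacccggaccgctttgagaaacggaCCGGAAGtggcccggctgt
Mrps26 (chr2:130563657-130563756, + strand): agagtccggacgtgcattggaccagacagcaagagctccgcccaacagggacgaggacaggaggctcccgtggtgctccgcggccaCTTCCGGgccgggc
Mrpl43 (chr19:45006443-45006542, − strand): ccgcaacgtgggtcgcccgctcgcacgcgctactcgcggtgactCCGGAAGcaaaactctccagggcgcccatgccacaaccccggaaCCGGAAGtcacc
Mrpl22 (chr11:58171564-58171663, + strand): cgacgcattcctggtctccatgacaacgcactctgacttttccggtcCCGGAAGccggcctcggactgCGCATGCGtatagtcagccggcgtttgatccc
Mrpl9 (chr3:94443236-94443335, + strand): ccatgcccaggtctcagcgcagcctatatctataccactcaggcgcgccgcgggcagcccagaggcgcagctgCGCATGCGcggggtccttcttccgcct
The ETS letters begin 19 bases before the start in Mrpl3 and 14 bases before it in Mrps26. In Mrpl43 they occur at 56 and at 12 bases before the start. Mrps24 has neither motif in its window and holds the YY1 letters 36 bases after the start.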

How the data were processed

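The authors deposited counts of reads per gene for 12 libraries, not normalized. The submitters' processing notes name Trimmomatic 0.36 for trimming, STAR 2.5.2b and GRCm38 for alignment, and featureCounts (Subread 1.5.2) for counting. No annotation release, kit, strand setting or batch was given in the sources used here. Symbols, mRNA lengths and coordinates came from GENCODE M21 (GRCm38), which matched 55141 rows, while 260 rows had no match.

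Counts were tested with edgeR 4.0.16 in R 4.3.3: filterByExpr, trimmed mean of M-values scaling and 1 group-means model over 12 libraries (8 residual degrees of freedom). It was tested in 6 contrasts by the robust quasi-likelihood test, with Benjamini-Hochberg adjustment over all 16213 genes at 0.05. SEs are the log2 fold change over the root of F. CPM are counts scaled to library size. The model, fitted across all genes, was tested on simulated data for exercise in females alone. Those data held no trend over transcript length and no differences in atrial content between libraries, so they do not bear on these.

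The members and lists were chosen with earlier results of these data known. Named members were those of the 5 smallest p in each contrast, the 3 highest and 3 lowest levels, those without overlap in both sexes, and a panel of 16. From the lists came the 2 smallest p in each exercise contrast and any call. The text names a part of these, and Mrpl24, Mrpl57, Cars2 and Grsf1 were added after their values were seen. Alternatives were RLE and upper quartile scaling, no filter, DESeq2 1.42.0, limma 3.58.1 voom with sample weights, a filter of CPM above 1 in 3 libraries, no robust estimation, only the groups compared, an atrial score (Myl7, Sln, Myl4, Bmp10, Stard10) as covariate, the 9 libraries with few atrial transcripts, an adjusted p of 0.1 and each library left out. Removing the length trend was added after the data were seen.

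Total counts set the precision, but libraries of 1 group differed by 1.71 to 7.0 in chi-square per degree of freedom over the members, where sampling noise alone gives about 1. No pair of libraries was counted as 1 sample. Where labels do not say that libraries come from separate animals, p-values measure only the spread between libraries.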

Additional observations from a re-analysis of the deposited data

Results flagged for a closer look

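In female sedentary 2, rows of the mitochondrial genome held 27.3% of the counts, while the other 11 libraries had 0 counts there. Among them were the 2 rRNAs of the mitochondrial ribosome, mt-Rnr1 with 89679 counts and mt-Rnr2 with 233553. It drew attention as a signal in rows that no comparison uses, since the filter on low counts left them out. The rRNAs that the member proteins bind were not compared between groups.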

How the results depend on the processing

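No paired analysis was possible because the labels give each library a number of its own, shared with no other group, and the replicate numbers 1 to 3 used here only follow the order of deposit. For the member medians, scaling, filter, tool, robust estimation and fitting only the groups compared moved no value by more than the spread between libraries. Without the 3 libraries with atrial transcripts, the member median was −0.023 for exercise in females, −0.038 for the difference between the sexes and 0.028 between the sexes in sedentary hearts. That last median was −0.003 with the atrial score as covariate, while the median for exercise in females was then 0.053. With the length trend removed, medians were −0.013 for exercise in males, 0.060 for the difference and −0.111 between sedentary sexes. With each library left out, the median ran from 0.023 to 0.101 in females and from −0.012 to 0.063 for the difference.

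Called members were 0 in all 6 comparisons and stayed at 0 with each library left out. Without a filter, 1 member was called in males, 1 for the difference, 1 for the average effect and 1 between sedentary sexes, in each case Mrps24. In males 327 genes in all were then called against 0, in females 357 against 0, for the difference 173, for the average 399 and between sedentary sexes 1317 against 358. DESeq2 called 1 member in males (16 genes in all) and 4 between sedentary sexes (882 genes). Between sedentary sexes, 3 members were called with the length trend removed and 3 at an adjusted p of 0.1 (816 genes).

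Of 1426 alternative values of 62 named member values, 1376 kept direction and side of the threshold, 10 passed it and 40 changed sign, all of them below 0.1 in size. With voom these were Mrpl11 (0.028) and Mrps12 (0.012) in females and Mrps18c (0.022) in males, and without a filter Mrpl11 (0) in females. With the length trend removed they were Mrpl44 (−0.018), Mrps16 (−0.005), Mrps34 (−0.003), Mrps36 (−0.025) and Mrps6 (−0.036) in males and Mrps7 (−0.015) in females. Without the 3 libraries with atrial transcripts they were Mrpl45 (−0.041), Mrpl54 (−0.076), Mrps18c (−0.071), Mrps22 (−0.087) and Mrps7 (−0.069) in females. With each library left out, the ranges in females were −0.059 to 0.068 for Mrpl11, −0.064 to 0.078 for Mrpl14, −0.002 to 0.087 for Mrpl44, −0.069 to 0.027 for Mrps12, −0.009 to 0.179 for Mrps18b, −0.012 to 0.159 for Mrps36 and −0.023 to 0.044 for Mrps7. In males they were −0.034 to 0.039 for Mrpl11, −0.064 to 0.004 for Mrpl18, −0.011 to 0.032 for Mrps16, −0.169 to 0.023 for Mrps18b, −0.111 to 0.061 for Mrps18c, −0.036 to 0.165 for Mrps34 and −0.013 to 0.139 for Mrps6. The cause of these changes was not tested. With 3 libraries a group, the 95% interval of a typical member reached 0.16 on the log2 scale to either side.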

Other observations

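There were 5 pseudogene rows with an Mrp symbol, which are not members. Mrpl23-ps1 had 127 to 190 counts in each library, Mrps36-ps1 111 to 142, Mrps36-ps2 44 to 80 and Mrpl48-ps 13 to 40, while Mrps36-ps3 had 0 in all 12. Counts of Mrpl23, Mrps36 and Mrpl48 are uncertain where reads were shared with these copies. In all, 25 of the 78 members share over 5% of their exon bases with another gene.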
